A study of Rattus norvegicus with 6 samples.

Results

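Fragments of 3 neighbouring mitochondrial tRNAs, those for isoleucine (mt-Ile-GAT), glutamine (mt-Gln-TTG) and methionine (mt-Met-CAT), were described in small RNA libraries of rat muscle. They were taken as every distinct sequence that the deposited table aligns to the mature or precursor form of these tRNAs and to no nuclear tRNA. This gave 4414 of the 77567 sequences in the table, namely 1481 of mt-Gln-TTG, 934 of mt-Ile-GAT and 1999 of mt-Met-CAT, out of 35487 on mitochondrial tRNAs. None aligned to a nuclear tRNA, and 1 also aligned to another mitochondrial tRNA. They carried 30392 reads, but 2648 of them were single reads and 146 had at least 30.

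There were 3 libraries titled as experimental and 3 titled as control. For all 6 the labels give muscle of lewis rats aged 6 to 8 weeks. The series title speaks of acute rejection and vascularized composite allotransplantation. The labels do not say what was done to the experimental animals, and a skin label (UV damage in the experimental and normal in the control samples) and the design text describe work on mouse skin. The titles alone gave the groups. Whether each library stands for its own animal is not stated, so the p-values below test against a spread between libraries that may be technical. The table holds only tRNA-aligned reads, so the labelled tissue was not tested against its markers.

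Mammalian mitochondrial DNA is copied from both strands into long RNAs, in which tRNAs lie between the coding and ribosomal sequences and are cut out at their 5′ ends by a mitochondrial RNase P and at their 3′ ends by ELAC2. CCA is then added to the 3′ end by TRNT1. The 3 tRNAs described here lie between the genes for ND1 and ND2, subunits of respiratory complex I, and mt-Gln is read from the strand opposite the other two. In mitochondria mt-Met both starts and lengthens proteins. Cuts in or near the anticodon loop of a tRNA give a long 5′ and a long 3′ piece, and other cuts give shorter ones.

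In the deposited coordinates, whose build no source used here names for rat, mt-Ile-GAT was at chrM:3695-3763 on the plus strand, mt-Gln-TTG at chrM:3761-3831 on the minus strand and mt-Met-CAT at chrM:3835-3903 on the plus strand. The genes for isoleucine and glutamine share 3 bases, and 3 bases lie between those for glutamine and methionine. The mature sequences are shown with the anticodon in capitals and the added CCA at the end. They carry the positions used throughout, which count from 1 at the first mature base, so that leader bases are at 0 and below.

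mt-Ile-GAT: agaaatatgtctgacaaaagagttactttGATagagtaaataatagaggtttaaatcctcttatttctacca
mt-Gln-TTG: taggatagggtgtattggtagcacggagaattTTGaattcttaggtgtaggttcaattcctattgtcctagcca
mt-Met-CAT: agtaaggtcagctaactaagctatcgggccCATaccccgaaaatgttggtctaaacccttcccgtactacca

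The fragments on which the results turn follow, with anticodon bases in capitals in the first 4 and added CCA bases in capitals in the next pair. In the Ile trailer read and the Met leader read the capitals mark bases complementary to mt-Gln-TTG.

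mt-Gln-TTG 30 to 69: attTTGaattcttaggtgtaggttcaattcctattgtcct
mt-Gln-TTG 1 to 35: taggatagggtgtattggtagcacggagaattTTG
mt-Ile-GAT 1 to 33: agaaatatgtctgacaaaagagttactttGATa
mt-Ile-GAT 17 to 33: aaagagttactttGATa
mt-Met-CAT 34 to 72: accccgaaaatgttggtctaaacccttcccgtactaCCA
mt-Met-CAT 34 to 71: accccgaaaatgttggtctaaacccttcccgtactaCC
mt-Met-CAT precursor 70 to 105: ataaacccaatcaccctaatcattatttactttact
mt-Ile-GAT precursor 71 to 88: GACAATAGGAATTGAACC
mt-Met-CAT precursor -18 to -1: AATACACCCTATCCTAca

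The libraries differed in depth. Reads aligned to tRNAs numbered 876494, 1927269 and 1866227 in the experimental and 550004, 740627 and 316990 in the control libraries. Those of the 3 tRNAs were 10341, 4139 and 10850 in the experimental libraries, against 871, 2809 and 1382 in the control libraries, so control values rest on fewer reads. All mitochondrial tRNAs together took 15.6%, 2.46% and 8.29% of tRNA-aligned reads in the experimental and 5.62%, 15.8% and 17.5% in the control libraries. Sequences were 14 to 40 nt long, and longer reads were not analysed here. Levels are given as counts per 1000000 tRNA-aligned reads (CPM), and fold changes come from limma voom over all fragments or anticodon sums of the table, after trimmed-mean scaling.

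As a share of all tRNA-aligned reads, none of the 3 tRNAs differed beyond the spread of the libraries. mt-Gln-TTG took 0.741%, 0.104% and 0.249% of tRNA-aligned reads in the experimental libraries, and 0.0727%, 0.0910% and 0.211% in the control libraries. The groups overlapped, with experimental replicate 1 far above the rest. mt-Met-CAT took 0.286%, 0.0821% and 0.260% in the experimental and 0.0675%, 0.218% and 0.153% in the control libraries. mt-Ile-GAT took 0.153%, 0.0292% and 0.0722% in the experimental and 0.0182%, 0.0706% and 0.0726% in the control libraries. The groups overlapped here too, and the exact two-sided permutation p-values were 0.2 for mt-Gln-TTG and 0.5 for each of the others (0.5 each adjusted over the 3 tRNAs). With 3 against 3 libraries the smallest p such a test allows is 0.1. The difference, experimental minus control, for mt-Gln-TTG was 0.240 percentage points, with 0.0516 without experimental replicate 1 and 0.370 without experimental replicate 2. For mt-Met-CAT it was 0.0635 percentage points. It was 0.0242 without control replicate 1, 0.0251 without experimental replicate 1, 0.0382 without experimental replicate 3, 0.0993 without control replicate 2 and 0.127 without experimental replicate 2.

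Among mitochondrial tRNA reads alone, all 3 tRNAs took a larger share in every experimental library than in any control library. mt-Gln-TTG took 4.75%, 4.21% and 3.01% of mitochondrial reads in the experimental libraries, against 1.295%, 0.574% and 1.201% in the control libraries. mt-Met-CAT took 1.84%, 3.34% and 3.13% in the experimental and 1.201%, 1.37% and 0.870% in the control libraries. mt-Ile-GAT took 0.979%, 1.19% and 0.871% in the experimental and 0.324%, 0.446% and 0.414% in the control libraries. Each comparison gave an exact two-sided permutation p = 0.1, the smallest possible. Over the 3 tRNAs together the share was 7.77% ± 0.884 in the experimental and 2.57% ± 0.225 in the control libraries (SD, n = 3 each; exact permutation p = 0.1). Of the 22 mitochondrial tRNAs, 8 (36.4%) had a higher share in every experimental than in any control library and 3 (13.6%) a lower one. Ordered by the ratio of the group means, mt-Gln-TTG stood first (3.90), after which came mt-Glu-TTC (3.76), mt-Ile-GAT (2.57) and mt-Met-CAT (2.41). These shares depend on one another, since they add up to the whole of the mitochondrial reads.

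**Figure D1:**
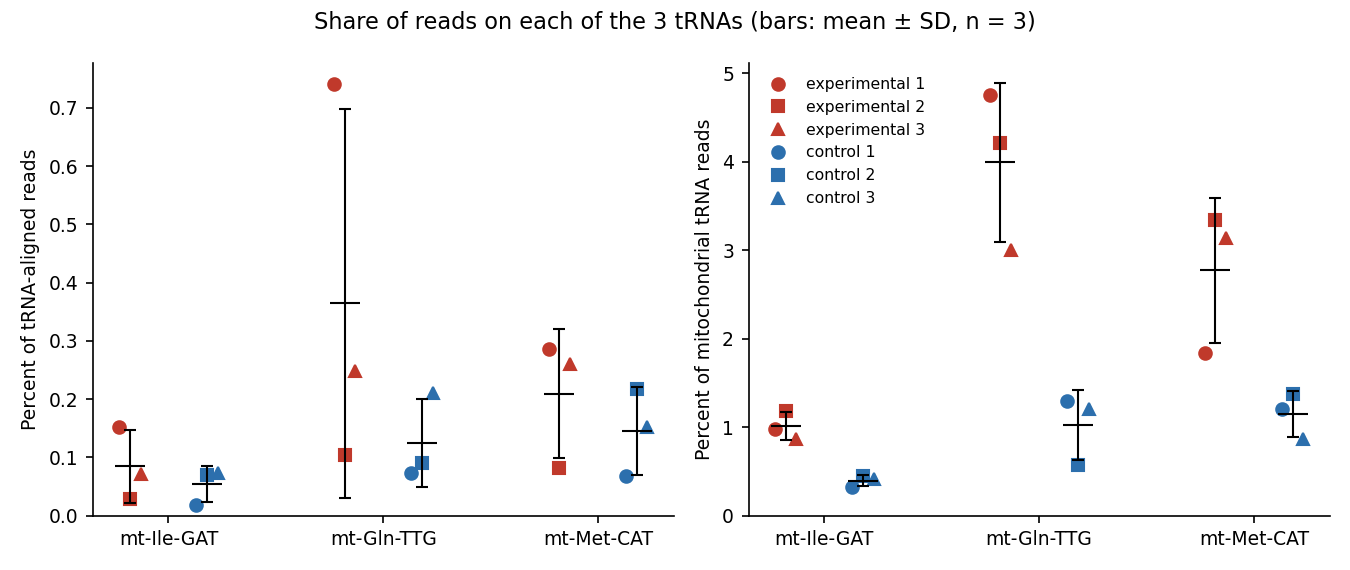
Share of reads on mt-Ile-GAT, mt-Gln-TTG and mt-Met-CAT in each library, in percent of tRNA-aligned reads (left) and in percent of mitochondrial tRNA reads (right); symbols are libraries, and the bars give the mean and SD of 3 libraries. The groups overlap on the left for all 3 tRNAs and are apart on the right, where mt-Gln-TTG reaches 3.01% to 4.75% in the experimental and 0.574% to 1.295% in the control libraries.

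Summed over all its fragments, no tRNA of the 3 passed the test among 69 anticodon sums, of which 0% were called by limma voom and 8.7% (6 sums) had an unadjusted p under 0.05. The log2 fold changes, experimental over control, were 1.51 ± 0.76 (SE) for mt-Gln-TTG (limma voom adjusted p = 0.429), 0.98 ± 0.80 for mt-Ile-GAT (adjusted p = 0.625) and 0.83 ± 0.79 for mt-Met-CAT (adjusted p = 0.668). With 1 library left out, they ran from 1.11 without experimental replicate 1 to 2.07 without experimental replicate 2 for mt-Gln-TTG, and none was called. For mt-Ile-GAT the value was 0.39 without control replicate 1, 0.62 without experimental replicate 1 and 1.54 without control replicate 2. For mt-Met-CAT it was 0.43 without experimental replicate 3, 0.45 without control replicate 1, 1.27 without experimental replicate 2 and 1.42 without control replicate 2. Scaled levels overlapped between the groups for each of the 3. By mean level mt-Gln-TTG ranked 18th, mt-Met-CAT 20th and mt-Ile-GAT 36th of the 69 sums. Of the 19 other mitochondrial tRNAs, 0 were called and 0 had an unadjusted p under 0.05 with limma voom; 3 had a log2 fold change above 0 and 16 below, with a median of -0.42 and a range from -1.19 to 1.55. With reads of mature tRNAs alone the log2 fold changes were 1.69 for mt-Gln-TTG, 1.69 for mt-Ile-GAT and 1.46 for mt-Met-CAT, still not called (limma voom adjusted p = 0.322, 0.207 and 0.411). These are bulk samples, in which fewer cells of a type and less RNA per cell cannot be told apart.

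Across the 6 libraries, mt-Ile-GAT and mt-Met-CAT had patterns much alike, with a root mean square difference of 0.37 between their log2 scaled levels, each centred on its own mean. For mt-Ile-GAT the nearest of 68 other sums were mt-Met-CAT, mt-His-GTG (0.40) and mt-Leu-TAA (0.45), where the median over all sums was 1.15. For mt-Met-CAT they were mt-His-GTG (0.28), mt-Ile-GAT and mt-Glu-TTC (0.40), with a median of 1.06. mt-Gln-TTG was nearest to mt-Glu-TTC (0.53), mt-Ile-GAT (0.61) and the nuclear Arg-CCT (0.70), with a median of 1.24.

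**Figure D2:**
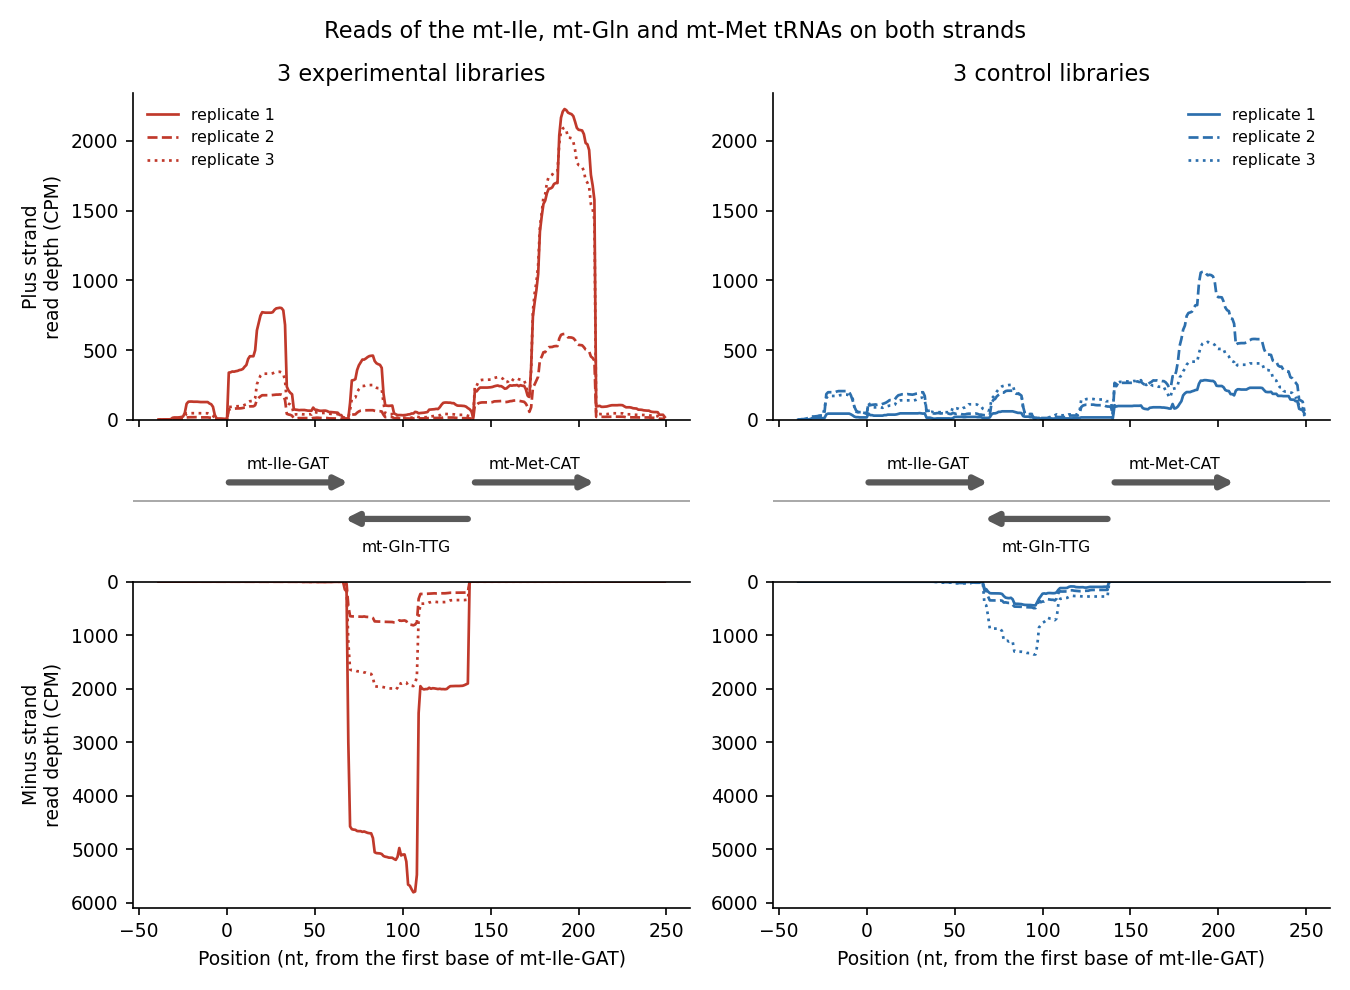
Read depth (CPM) along the 3 tRNA genes in the experimental (left) and control (right) libraries, on the plus strand (top) and the minus strand (bottom, drawn downward); lines are libraries, arrows mark the mature tRNAs and their direction, and added CCA bases are left out. The 3′ part of mt-Gln-TTG and the 3′ part of mt-Met-CAT carry most reads in the experimental libraries, while the stretch to the right of mt-Met-CAT stands out in the control libraries.

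Reads were next sorted by where they lie. Reads that start at 1 to 3 within the mature tRNA were called 5′ fragments, reads that start later and reach the last mature base or CCA 3′ fragments, other reads within it internal, and reads that match only the precursor leader or trailer reads. Leader, trailer and precursor tell where a read aligns, and not whether it came from an uncut tRNA precursor. Over 15 pairs of tRNA and class, 4 (26.7%) had a higher share in every experimental than in any control library and 5 (33.3%) a lower one. The exact permutation test, with a smallest possible p of 0.1, could call none of them (0% called). Its smallest p after adjustment over the 15 pairs was 0.167. Shares of a tRNA's reads depend on one another, since they add up to the whole. The same holds for the shares by start, end and length below. Reads from outside the mature tRNAs took a smaller part in every experimental library. Precursor reads were 7.76%, 6.62% and 7.29% of the reads of the 3 tRNAs in the experimental libraries, against 24.2%, 31.3% and 24.4% in the control libraries.

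**Figure D3:**
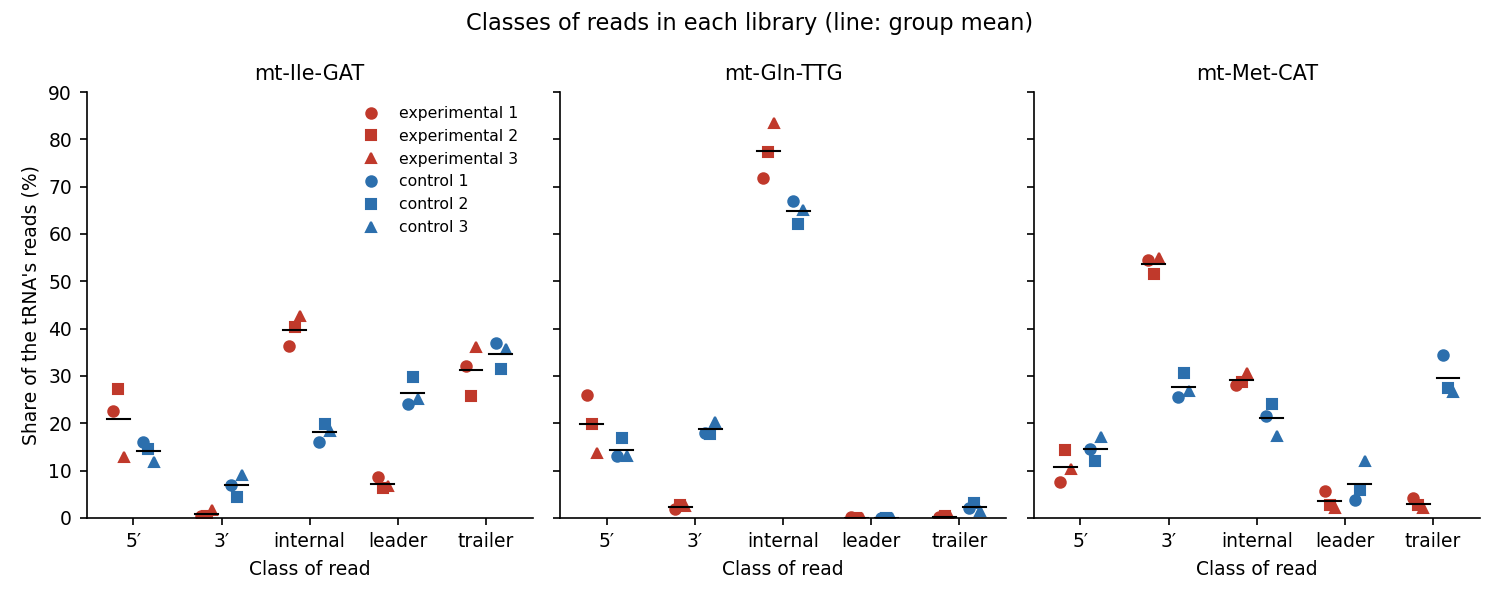
Share of each tRNA's reads in 5 classes (5′, 3′, internal, precursor leader, precursor trailer), in percent; symbols are libraries and lines group means. The groups are apart for internal reads of all 3 tRNAs, for 3′ reads of all 3 (lower in the experimental libraries on mt-Ile-GAT and mt-Gln-TTG, higher on mt-Met-CAT), for the leader of mt-Ile-GAT and for the trailers of mt-Gln-TTG and mt-Met-CAT.

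In the experimental libraries most mature mt-Gln-TTG reads began within 3 neighbouring bases. Starts at positions 29 to 31, the end of the anticodon stem and the first base of its loop, took 59.1%, 59.4% and 63.2% of mature reads in the experimental libraries, against 16.1%, 22.5% and 22.2% in the control libraries. Position 30 alone took 44.1%, 44.6% and 46.0% in the experimental and 8.42%, 12.6% and 13.8% in the control libraries. These starts lay just 5′ of the anticodon at 33 to 35, and the groups were far apart. Of the reads from 29 to 31, 91.9%, 90.8% and 88.1% in the experimental and 53.97%, 74.8% and 83.6% in the control libraries were 39 or 40 nt long. Since 40 nt was the longest length in the table, where such RNAs really ended is unknown.

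The fragment 30 to 69 of mt-Gln-TTG had the highest mean CPM over the 6 libraries among all 4414, though fragment 41 to 54 stood above it in control replicates 2 and 3. It stood at 1650, 239 and 585 CPM in the experimental libraries (1442, 460 and 1092 reads), against 34.5, 48.6 and 120 CPM in the control libraries (19, 36 and 38 reads). The groups did not overlap, and its log2 fold change was 3.65 ± 0.90 (SE; limma voom adjusted p = 0.000679). That fit gave all fragments 1 pooled spread. With the fragment's own spread the adjusted p was 0.0750, above the threshold of 0.05. Leaving out 1 library kept it called, with a log2 fold change of 2.91 without experimental replicate 1 and 3.99 without experimental replicate 2.

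Most tested mt-Gln-TTG fragments with a start near its own rose too. The 12 that start at 29 to 32, a range chosen after the values were seen, include 30 to 69 itself and the shorter 29 to 54. Of these 12, 9 rose and 0 fell, where 18.7% of all 2226 fragments tested were called higher and 7.64% lower. They overlap in sequence and are not separate evidence. Some, such as 32 to 69 (1.82, 0 and 6.31 CPM in the control libraries), passed the filter on low counts through the experimental libraries alone. Fragment 30 to 68 stood at 492, 54.5 and 153 CPM in the experimental and 5.45, 10.8 and 78.9 CPM in the control libraries (log2 fold change 3.49 ± 0.94, limma voom adjusted p = 0.00209, 0.162 with its own spread). It overlapped between the groups and lost its call without experimental replicate 1 (adjusted p = 0.0550). This fragment, too, was picked after its values were seen. Among those that rose were 4 with a mismatch at the last base of the read. They were T69A, T69C and T69G on fragment 30 to 69 and C68T on 30 to 68, each written as reference base, position and read base. T69A, T69C and T69G passed the filter through the experimental libraries alone, with at most 2.7, 6.31 and 10.8 CPM in a control library. Of the reads 30 to 69, 17.8%, 20.3% and 20.1% had a mismatch at the last base in the experimental libraries. In the control libraries it was 0 of 19, 11 of 51 and 2 of 44 reads, so the groups overlapped.

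Reads were also seen on the 5′ side of position 30. Reads that start at position 1 took 25.7%, 19.2% and 13.5% of mature mt-Gln-TTG reads in the experimental and 12.8%, 17.5% and 13.2% in the control libraries, with overlap. Of these, 23.6%, 17.02% and 18.4% ended at 28 or 29 in the experimental libraries, against 16.0%, 13.2% and 13.8% in the control libraries, where 8, 15 and 12 reads did so. Ends at 30 to 37, in the anticodon loop or at the base before it, made up 58.5%, 62.6% and 62.7% in the experimental and 44%, 47.4% and 63.2% in the control libraries, with overlap. Fragment 1 to 35, which ends with the anticodon, stood at 420, 51.4 and 88.4 CPM in the experimental and 16.4, 24.3 and 41.0 CPM in the control libraries. Its log2 fold change was 2.53 ± 0.92 (limma voom adjusted p = 0.0276, 0.126 with its own spread). Fragment 1 to 29 stood at 195, 14.5 and 31.1 CPM in the experimental and 5.45, 6.75 and 18.9 CPM in the control libraries, with overlap (log2 fold change 2.47 ± 0.98, limma voom adjusted p = 0.0461, 0.202 with its own spread). Both calls were lost without experimental replicate 1, without experimental replicate 3 and without each of the 3 control libraries, with log2 fold changes down to 1.62 (adjusted p = 0.141) and 1.39 (adjusted p = 0.285), both without experimental replicate 1. Fragment 1 to 39 was not called (138, 12.5 and 18.8 CPM in the experimental and 3.64, 23 and 22.1 CPM in the control libraries; log2 fold change 1.49, limma voom adjusted p = 0.261), and leaving out experimental replicate 1 brought the log2 fold change to 0.38, leaving out control replicate 1 to 0.77.

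Shorter pieces of the 3′ part took more of the control reads. Ends at position 54 in the T loop took 4.43%, 7.60% and 7.44% of mature mt-Gln-TTG reads in the experimental libraries, against 19.9%, 16.4% and 19.5% in the control libraries. Ends in CC or CCA took 1.71%, 2.57% and 1.55% in the experimental and 17.6%, 18.4% and 19.8% in the control libraries. The groups were apart for both. Fragment 41 to 54, the most abundant of the kind, stood at 105, 17.6 and 53.0 CPM in the experimental and 32.7, 59.4 and 177 CPM in the control libraries and was not called (log2 fold change -0.33, limma voom adjusted p = 0.822). Fragment 55 to 73 fell (17.1, 1.56 and 1.61 CPM in the experimental and 27.3, 25.7 and 56.8 CPM in the control libraries; log2 fold change -2.90 ± 1.00, limma voom adjusted p = 0.0188, 0.141 with its own spread). So did fragment 42 to 60 (6.85, 0.519 and 6.43 CPM in the experimental and 14.5, 20.3 and 82.0 CPM in the control libraries; log2 fold change -2.82 ± 1.01, limma voom adjusted p = 0.0246, 0.181 with its own spread). They rest on 3 to 15 and on 1 to 12 reads per experimental library. The call of 55 to 73 was lost without experimental replicate 2, experimental replicate 3 or control replicate 3 (limma voom adjusted p = 0.0593, 0.172 and 0.0724). That of 42 to 60 was lost without experimental replicate 1, experimental replicate 2 or control replicate 3 (0.0520, 0.135 and 0.140). Fragment 55 to 74, with the whole CCA, was not called (log2 fold change -2.22, limma voom adjusted p = 0.0715).

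As a class, 3′ fragments were 1.97%, 2.66% and 2.49% of mt-Gln-TTG reads in the experimental and 18.0%, 17.8% and 20.2% in the control libraries (exact permutation p = 0.1, adjusted 0.167). Internal fragments were 71.8%, 77.2% and 83.4% in the experimental and 67.0%, 62.2% and 65.1% in the control libraries (exact permutation p = 0.1, adjusted 0.167). The fragment 30 to 69 and its neighbours end before the last mature base at 71 and so count as internal. The mean read length was 34.9, 33.9 and 34.1 nt in the experimental and 22.1, 24.3 and 24.5 nt in the control libraries, without overlap (exact permutation p = 0.1, adjusted over the 3 tRNAs 0.15). Reads of 39 or 40 nt made up 57%, 55.8% and 57.8% in the experimental and 11%, 20.03% and 20.8% in the control libraries, and reads of 14 to 20 nt 9.55%, 14.2% and 14.3% in the experimental and 65%, 57.4% and 57.6% in the control libraries. Long and short reads thus each separated the groups as shares of mt-Gln-TTG reads. A larger share of long reads by itself lowers that of short reads. Their levels in CPM were not compared. Precursor reads of mt-Gln-TTG were few in both groups, at most 0.351% in an experimental and 3.12% in a control library.

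**Figure D4:**
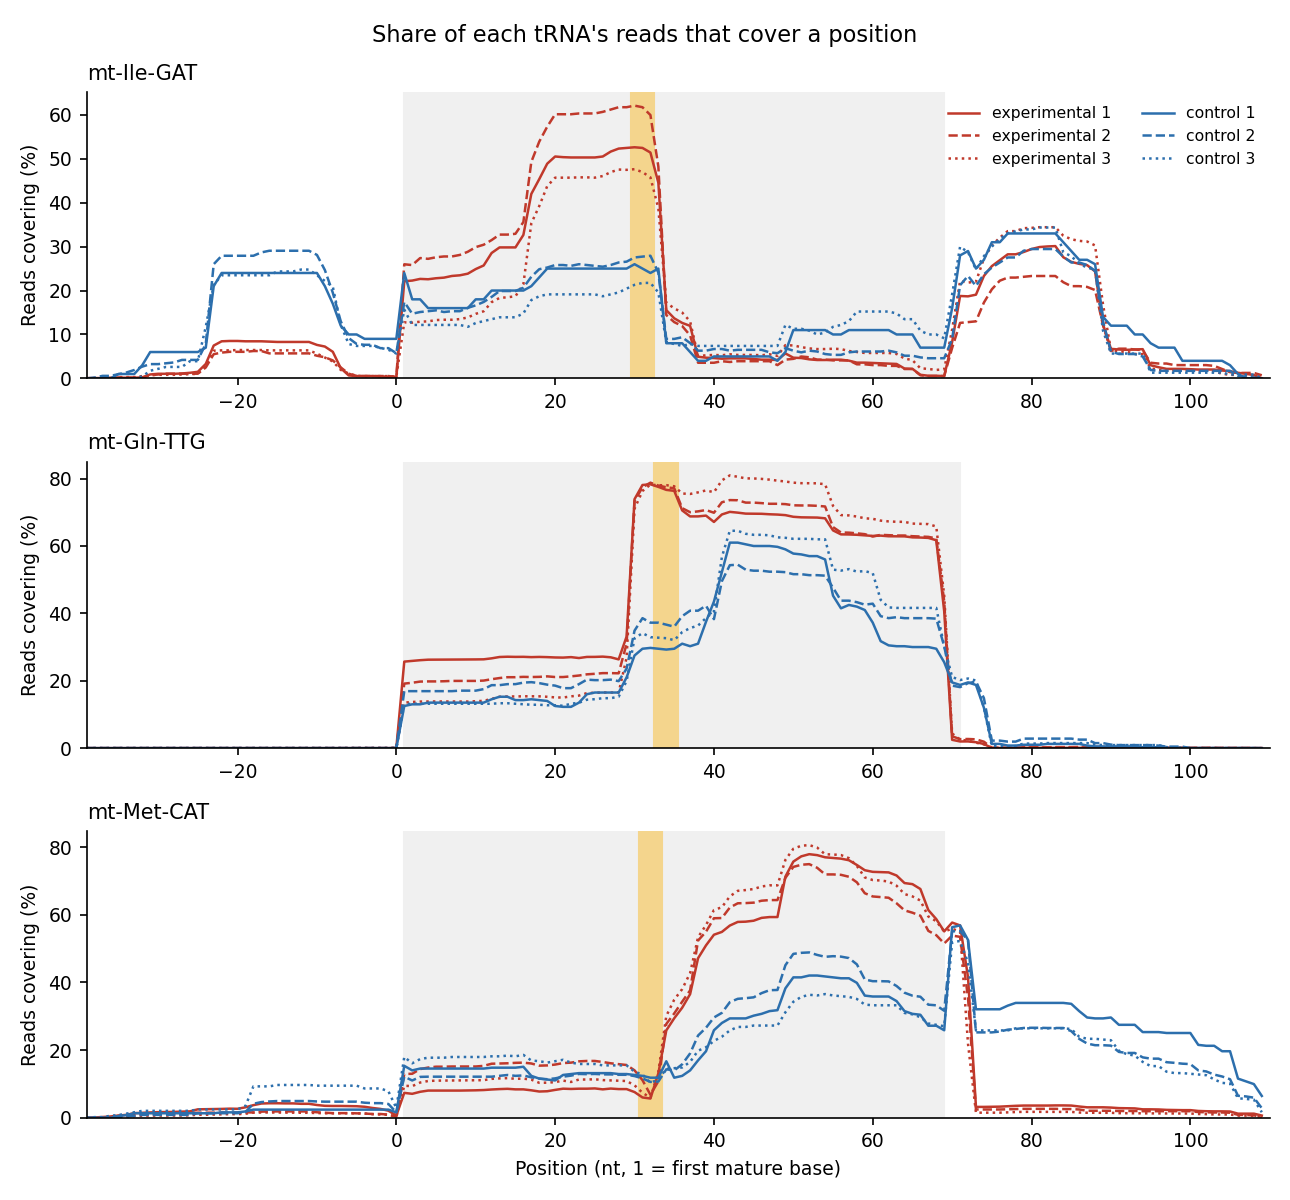
Percent of each tRNA's reads that cover each position, from 39 bases before the first mature base to 109 after it; lines are libraries, grey marks the mature tRNA and yellow the anticodon, and past the grey the added CCA and the trailer share positions. In the experimental libraries coverage of mt-Gln-TTG steps up at position 30, of mt-Met-CAT after the anticodon, and of mt-Ile-GAT at 17 with a step down at 33.

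In the experimental libraries mt-Met-CAT was read mainly as 3′ fragments. Its 3′ fragments were 54.5%, 51.5% and 54.9% of its reads in the experimental libraries, against 25.6%, 30.5% and 26.9% in the control libraries (exact permutation p = 0.1, adjusted 0.167). Internal fragments were 28.03%, 28.6% and 30.5% in the experimental and 21.6%, 24.1% and 17.4% in the control libraries (exact permutation p = 0.1, adjusted 0.167). 5′ fragments, at 7.66%, 14.4% and 10.4% in the experimental and 14.6%, 12.03% and 17.2% in the control libraries, and leader reads, at 5.66%, 2.78% and 2.14% in the experimental and 3.77%, 5.89% and 11.98% in the control libraries, overlapped. Starts at 33 to 38, from the last anticodon base on, took 48.3%, 50.9% and 51.4% of mature reads in the experimental and 22.7%, 29.02% and 26.9% in the control libraries. Starts at position 1 took 7.65%, 13.6% and 9.65% in the experimental and 22.7%, 16.4% and 25.3% in the control libraries. Both kinds of start separated the groups, while starts at 49 or 50 did not (18.4%, 10.4% and 11.5% in the experimental and 15.7%, 16.2% and 11.5% in the control libraries). Mean read length was 28.7, 29.6 and 29.3 nt in the experimental and 27.9, 26.9 and 26.2 nt in the control libraries (exact permutation p = 0.1, adjusted 0.15).

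Fragment 34 to 71, which begins right after the anticodon and lacks the last A of CCA, rose. It stood at 61.6, 35.3 and 158 CPM in the experimental (54, 68 and 294 reads) and 1.82, 2.70 and 6.31 CPM in the control libraries (1, 2 and 2 reads), without overlap. Its log2 fold change was 4.35 ± 0.99 (limma voom adjusted p = 0.000214, 0.0741 with its own spread). It remained called with any 1 library left out, between 3.79 without experimental replicate 3 and 4.50 without experimental replicate 2. The same fragment with the whole CCA, 34 to 72, was not called: 176, 59.7 and 93.2 CPM in the experimental and 21.8, 66.2 and 25.2 CPM in the control libraries, with overlap (log2 fold change 1.77 ± 0.91, limma voom adjusted p = 0.136). Of the pair that starts at 38, fragment 38 to 71 rose, at 49.1, 14.5 and 63.8 CPM in the experimental and 0, 2.70 and 15.8 CPM in the control libraries, with overlap (log2 fold change 3.53 ± 0.99, limma voom adjusted p = 0.00333, 0.167 with its own spread). Its call was lost without experimental replicate 1 (adjusted p = 0.0525) or control replicate 1 (0.0597). Fragment 38 to 72 was not called (98.1, 33.7 and 34.3 CPM in the experimental and 9.09, 20.3 and 15.8 CPM in the control libraries, without overlap; log2 fold change 1.91, limma voom adjusted p = 0.125, 0.0986 with its own spread). Fragment 33 to 72, from the last anticodon base and with the whole CCA, did rise. It stood at 112, 18.7 and 62.7 CPM in the experimental and 1.82, 27.0 and 6.31 CPM in the control libraries, with overlap. Its log2 fold change was 2.84 ± 0.98 (limma voom adjusted p = 0.0192, 0.174 with its own spread). The call was lost without experimental replicate 1 or 3 and without control replicate 1 or 3.

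The end of the 3′ fragments was counted over all of them. They ended in the whole CCA in 69.8%, 64.0% and 36.9% of cases in the experimental libraries, against 78.9%, 89.2% and 74.6% in the control libraries. They ended in CC in 28.2%, 35.01% and 60.3% in the experimental and 16.8%, 9.35% and 23.9% in the control libraries. The groups were apart for both, and experimental replicate 3 stood farthest out. Ends in a single C or before the CCA took at most 1.69% and 1.051% in any experimental and 3.16% and 1.053% in any control library. This difference was described and not tested.

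Fragments 49 to 72 and 1 to 31 of mt-Met-CAT were not called. Fragment 49 to 72 stood at 169, 19.7 and 58.9 CPM in the experimental and 30.9, 113 and 37.9 CPM in the control libraries (log2 fold change 0.40, limma voom adjusted p = 0.777). The 5′ fragment 1 to 31 stood at 17.1, 20.8 and 34.3 CPM in the experimental and 1.82, 16.2 and 34.7 CPM in the control libraries (log2 fold change 1.26, limma voom adjusted p = 0.356). Both overlapped between the groups. The most abundant internal fragment, 38 to 66, had too few reads to be tested, at 22.8, 6.23 and 17.1 CPM in the experimental and 0, 5.40 and 6.31 CPM in the control libraries.

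Beyond its 3′ end, toward ND2, mt-Met-CAT showed the reverse. Trailer reads were 4.11%, 2.72% and 1.98% of its reads in the experimental libraries, against 34.5%, 27.4% and 26.7% in the control libraries (exact permutation p = 0.1, adjusted 0.167). In both groups most of them began at position 70, the first base after the mature tRNA, with 67.0%, 88.4% and 70.8% of trailer reads in the experimental and 89.1%, 86.0% and 93.0% in the control libraries. Few crossed the 3′ end of the tRNA (14, 1 and 6 reads in the experimental and 1, 18 and 1 in the control libraries). The other trailer reads lay wholly beyond the mature tRNA. Whether they came from uncut tRNA precursors or from the RNA that follows was not tested.

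Of the trailer fragments, 70 to 105 fell, at 7.99, 4.15 and 5.36 CPM in the experimental (7, 8 and 10 reads) and 43.6, 70.2 and 47.3 CPM in the control libraries (24, 52 and 15 reads). The groups did not overlap, and the log2 fold change was -2.92 ± 0.96 (limma voom adjusted p = 0.0137). Of the 51 fragments of the 3 tRNAs that were tested, it alone was called with its own spread (adjusted p = 0.0375). It passed the filter on low counts through the control libraries alone. The call was lost without experimental replicate 3 (limma voom adjusted p = 0.0719) or control replicate 2 (0.0517). Fragment 70 to 90 fell with 3.42, 0 and 2.14 CPM in the experimental and 14.5, 25.7 and 47.3 CPM in the control libraries (log2 fold change -4.02 ± 1.02, limma voom adjusted p = 0.00106, 0.108 with its own spread). It remained called with any 1 library left out, between -4.84 without experimental replicate 1 and -3.16 without experimental replicate 2. Fragment 70 to 109, again at the upper limit of length, fell with 7.99, 0.519 and 3.22 CPM in the experimental and 25.5, 44.6 and 15.8 CPM in the control libraries (log2 fold change -3.03 ± 1.02, limma voom adjusted p = 0.0156, 0.116 with its own spread). Its call was lost without experimental replicate 2, experimental replicate 3 or control replicate 2 (0.0832, 0.0650 and 0.0755).

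mt-Ile-GAT was the least read of the 3, and many of its reads ended at the anticodon. Ends at 32 or 33, the last anticodon base and the one after it, took 60.8%, 68.1% and 50.9% of its mature reads in the experimental and 48.7%, 52.2% and 40% in the control libraries, with overlap. Starts at 17 took 17.2%, 21.5% and 25.5% in the experimental and 2.56%, 7.39% and 7.78% in the control libraries, without overlap. The 5′ fragment 1 to 33 stood at 180, 39.4 and 41.8 CPM in the experimental and 16.4, 50 and 44.2 CPM in the control libraries and was not called (log2 fold change 1.22, limma voom adjusted p = 0.334). Fragment 17 to 33, which shares its end, rose, at 65.0, 25.4 and 43.9 CPM in the experimental (57, 49 and 82 reads) and 1.82, 12.2 and 15.8 CPM in the control libraries (1, 9 and 5 reads). Its log2 fold change was 2.57 ± 0.98 (limma voom adjusted p = 0.0369, 0.13 with its own spread). It was not called when any 1 of the 6 libraries was left out, with log2 fold changes from 1.85 without control replicate 1 (adjusted p = 0.185) to 2.90 without control replicate 2 (0.0527).

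By class, internal fragments were 36.3%, 40.4% and 42.6% of mt-Ile-GAT reads in the experimental libraries, against 16.0%, 19.9% and 18.3% in the control libraries (exact permutation p = 0.1, adjusted 0.167). 3′ fragments were 0.374%, 0.356% and 1.71% in the experimental and 7%, 4.40% and 9.13% in the control libraries, and leader reads 8.595%, 6.23% and 6.83% in the experimental and 24%, 29.8% and 25.2% in the control libraries (exact permutation p = 0.1, adjusted 0.167, for both). Control replicate 1 had 100 mt-Ile-GAT reads in all. The leading read of the leader, toward ND1, was the precursor fragment -23 to -8, at 20.5, 2.08 and 3.75 CPM in the experimental and 5.45, 23 and 25.2 CPM in the control libraries (log2 fold change -1.22, limma voom adjusted p = 0.392). Mean read length did not separate the groups (21.2, 21.9 and 19.8 nt in the experimental and 21.9, 20.3 and 20 nt in the control libraries; exact permutation p = 1, adjusted 1).

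Because mt-Gln lies on the other strand, the trailer of mt-Ile and part of the leader of mt-Met are the complement of mt-Gln. Trailer reads were 32.1%, 25.8% and 36.1% of mt-Ile-GAT reads in the experimental and 37%, 31.4% and 35.7% in the control libraries, with overlap (exact permutation p = 0.5). Their fragment with the highest mean CPM, 71 to 88 (chrM:3765-3782), is the complement of mt-Gln-TTG 50 to 67. It stood at 63.9, 4.15 and 23 CPM in the experimental and 9.09, 28.4 and 15.8 CPM in the control libraries (log2 fold change 0.37, limma voom adjusted p = 0.811). Fragment 71 to 89, 1 base longer, was at a like level, with 43.4, 6.75 and 35.4 CPM in the experimental and 5.45, 24.3 and 22.1 CPM in the control libraries (log2 fold change 0.76, limma voom adjusted p = 0.591). Fragments 74 to 88 (35.4, 4.15 and 15 CPM in the experimental and 1.82, 13.5 and 15.8 CPM in the control libraries; log2 fold change 0.88, limma voom adjusted p = 0.545) and 70 to 83 (29.7, 3.11 and 11.8 CPM in the experimental and 3.64, 12.2 and 22.1 CPM in the control libraries; too few reads to be tested) also overlapped between groups. The leading Met leader fragment, -18 to -1 (chrM:3816-3833), holds 16 bases complementary to mt-Gln-TTG 1 to 16. It stood at 17.1, 1.56 and 8.04 CPM in the experimental and 3.64, 21.6 and 41.0 CPM in the control libraries (log2 fold change -1.05, limma voom adjusted p = 0.464).

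In all, 320 distinct sequences with 1542 reads lay wholly opposite mt-Gln-TTG, where the tRNA's own strand had 14812 mature reads. They made up 7.23%, 7.92% and 10.4% of the reads of both strands in the experimental and 9.68%, 22.4% and 12.9% in the control libraries, with overlap. Opposite mt-Ile-GAT there were 57 reads, as trailer reads of mt-Gln-TTG. They made up 0.875%, 1.80% and 1.16% of the reads of both strands in the experimental (7, 7 and 9 reads) and 11.4%, 8.56% and 10% in the control libraries (5, 19 and 10 reads), without overlap. This difference was described and not tested. Opposite mt-Met-CAT none of the reads lay wholly within the tRNA.

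Over the 3 tRNAs, 51 fragments passed the filter on low counts, and 4363 did not. The 51 held 44.9% of the reads of the 3 tRNAs. Of them 15 rose and 5 fell in the limma voom fit, against 18.7% and 7.64% of all fragments tested. By tRNA, 11 of 27 rose and 2 fell for mt-Gln-TTG, 3 of 18 rose and 3 fell for mt-Met-CAT, and 1 of 6 rose and 0 fell for mt-Ile-GAT. By class, 10 of 19 internal, 3 of 13 3′ and 2 of 10 5′ fragments rose, while 3 of 7 trailer fragments fell. The 15 that rose lie at 6 places and the 5 that fell at 5, counting fragments with both ends within 2 nt as 1 place. The filter asked for a level in any 3 libraries, so a fragment could pass through 1 group alone. mt-Met-CAT 34 to 71 passed through the experimental libraries alone, with 1.82, 2.70 and 6.31 CPM in the control libraries. Of those that fell, mt-Met-CAT precursor 70 to 90, 70 to 105 and 70 to 109 and mt-Gln-TTG 42 to 60 passed through the control libraries alone. In the experimental libraries they reached at most 3.42, 7.99, 7.99 and 6.85 CPM. These counts and the shares over all fragments tested are shaped by that filter.

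The calls depend on the spread that the test uses. With each fragment's own spread, 0 of the 51 were called higher and 1 lower, against 0.674% and 0.359% of all fragments tested, while 17 had an unadjusted p under 0.05 with a higher and 8 with a lower level (26.5% of all fragments tested in either direction). Without regard to spread, scaled levels did not overlap between the groups for 22 fragments that were higher and 8 that were lower in the experimental libraries, against 26.1% and 14.6% of all fragments tested. Overlap of single fragments was given above in CPM without that scaling, and it can differ from overlap of scaled levels. The median log2 fold change of the 51 was 1.49, and that of all fragments tested 0.21.

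**Figure D5:**
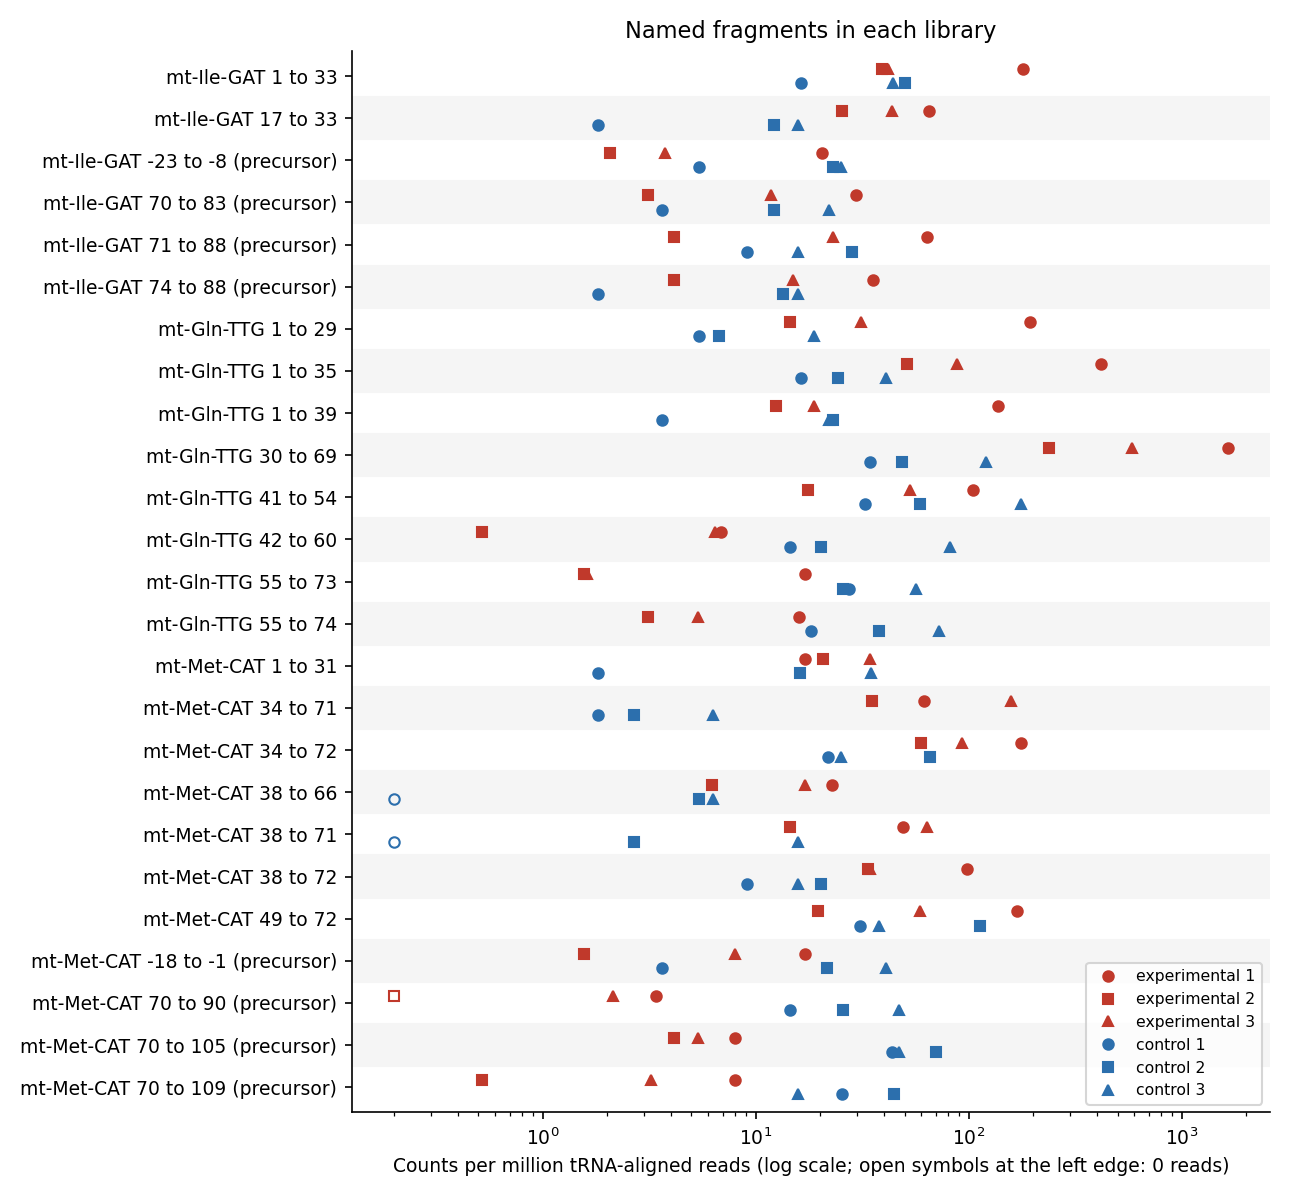
CPM of the 25 named fragments in each library on a log scale, with experimental libraries in red above the control libraries in blue; open symbols at the left edge stand for 0 reads. mt-Gln-TTG 30 to 69 (239 to 1650 CPM in the experimental, 34.5 to 120 in the control libraries) and mt-Met-CAT 34 to 71 lie to the right in the experimental libraries, and the mt-Met-CAT trailer fragments lie to the left.

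Mismatches were rare at single positions within the reads, but 2945 of the 4414 sequences carried 1. Exact matches were 73.6%, 70.5% and 72.4% of reads in the experimental and 77.7%, 76.0% and 75.8% in the control libraries. On mt-Gln-TTG they were 72.3%, 70.2% and 71.9% in the experimental and 81.75%, 79.2% and 78.9% in the control libraries. The groups were apart for both, but overlapped on mt-Ile-GAT and mt-Met-CAT. These shares were described and not tested. The difference in mismatches between groups was tested at each position by the exact permutation test. With 3 against 3 libraries its p cannot go below 0.1, so no position could be called. Over 297 positions with at least 30 reads in each group, leaving out 2 bases at each read end, the median share of reads with a mismatch was 0.233%. None was called after adjustment (0%; smallest adjusted exact permutation p = 0.958), and the groups did not overlap at 31 positions (10.4%). Only position 9 of mt-Ile-GAT had a mismatch in at least 5% of the pooled reads. There a mismatch was read in 11.9%, 8.97% and 13.4% of reads in the experimental and 0%, 7.5% and 14.8% in the control libraries, on 312, 156 and 179 reads in the experimental and 16, 80 and 27 reads in the control libraries. The groups overlapped. The reads carried G9A (36), G9C (34) and G9T (15). As background, a purine at position 9 of mitochondrial tRNAs is methylated by TRMT10C, a subunit of the mitochondrial RNase P. mt-Gln-TTG, also with G at position 9, had a mismatch there in 3.23%, 3.27% and 2.34% of reads in the experimental and 3.70%, 0.877% and 1.14% in the control libraries. mt-Met-CAT has C, not a purine, at position 9, and none of its reads over that position had a mismatch there. Methylation was not measured, and the cause of these mismatches was not tested.

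A mismatch just 3′ of the anticodon loop of mt-Met-CAT, chosen after its values were seen, stood apart by group and by fragment. Of reads that start at 1 to 23 and reach 38, C36A was carried by 0 of 39, 0 of 46 and 1 of 99 in the experimental libraries, against 2 of 10, 28 of 74 and 4 of 12 in the control libraries. Of reads that start at 24 to 34 and reach 38, it was carried by 1 of 576, 2 of 374 and 1 of 1308 in the experimental and by none of 23, 105 and 30 in the control libraries. The exact permutation test over all reads at position 36 gave p = 0.1, the smallest possible, adjusted 0.958 over the 297 positions.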

How the data were processed

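Small RNA libraries (NEBNext small RNA kit, per the labels' protocols) were deposited by the authors as a table of raw read counts per distinct sequence and library. Per the file headers, sequences were aligned to mature tRNAs with CCA and to precursor tRNAs with 40-base flanks; the alignments hold at most 1 mismatch. No aligner is named in the sources used here, and the only build in the submitters' processing notes is mm9, of mouse. Longer reads or reads with more mismatches would be missing. The 3 tRNAs, their fragments and the lists were chosen with earlier results of these data known.

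Sequences were counted once. Anticodon sums split a sequence equally among its anticodons. To be tested, a fragment or sum had to reach, in any 3 libraries, the CPM that equals 10 counts at median depth, and 15 counts over the 6 libraries. Because 1812 lines of text stand between the counts, the tests used voom of limma 3.58.1 with a prior count of 0.5 (R 4.3.3), trimmed-mean factors (trims 0.3 and 0.05), Benjamini-Hochberg adjustment and a threshold of 0.05. Factors over fragments came to 1.463, 0.562 and 0.939 in the experimental and 0.986, 1.099 and 1.194 in the control libraries. Fragment prior degrees of freedom were infinite, so all shared 1 spread; own-spread fits stand beside. The scripts were tested on simulated data. Shares and mean lengths were compared by exact two-sided permutation tests in Python 3.11.15.

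Fragments named are, per tRNA, the 5 most abundant by mean CPM over the 6 libraries, the most abundant of each class with at least 30 reads, and the 8 largest rises and falls called, with 1 per place (both ends within 2 nt); for each sum the 3 most alike sums are named. Alternatives were other scaling, filters, tests, class limits and denominators, exact matches, replicate blocks and each library left out.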

Additional observations from a re-analysis of the deposited data

How the results depend on the processing

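Of the 69 anticodon sums, 0 were called with limma voom. The number was 1 with library totals, 2 with limma trend, 1 with sequences of 1 anticodon only, 1 with sequences on mature tRNAs only, and 0 to 2 with 1 library left out. The 3 tRNAs were not called under any alternative run. Fragments of the 3 tRNAs called higher numbered 15, but 6 with library totals, 115 of 4414 with no filter on low counts and 0 with own spread, and 5 to 16 with 1 library left out. Those called lower numbered 5, but 3, 42 and 1 under the same alternatives, and 2 to 7 with 1 library left out. The cause was not tested. With 1 library left out, the difference in share of tRNA-aligned reads on mt-Ile-GAT ran from -0.00309 (without experimental replicate 1) to 0.0587 percentage points. The difference in mean length on mt-Ile-GAT ran from -0.215 (without experimental replicate 2) to 0.813 nt, and was -0.119 without control replicate 3. The log2 fold change of mt-Ile-GAT precursor 71 to 88 ran from -0.56 to 1.06 and was -0.02 without control replicate 3. That of mt-Met-CAT 49 to 72 ran from -0.39 to 0.98 and was -0.16 without control replicate 3. That of mt-Gln-TTG 41 to 54 ran from -0.91 to 0.02, and was 0.09 with no filter. All class shares kept their direction under the alternatives run. Whether replicate numbers pair the libraries could not be settled from 3 libraries per group. Deviations of same-numbered libraries correlated at -0.31, -0.057 and 0.136 over fragments, and not every library correlated best with its own number. With the replicate block in the fit, 12 fragments were higher and 5 lower and 0 sums were called. mt-Gln-TTG 1 to 29 (limma voom adjusted p = 0.0678) and mt-Ile-GAT 17 to 33 (0.0558) lost their calls, and the exact sign-flip test of paired shares cannot go below 0.25. Control libraries with 100 to 1612 reads per tRNA limit what small shares can show, and reads of 1 library are not independent molecules.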
